A study of Gallus gallus with 3 samples.

Results

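Mitochondrial ribosomal protein genes were examined in chicken DT40-ASF cells with and without an SRSF1-3 knock-in. They were taken by name, as the genes of the count table whose symbol begins with MRPL or MRPS followed by a digit, which gave 59 of 11877 genes. Of these, 33 were MRPL genes, named for the large subunit, and 26 were MRPS genes, named for the small subunit. All 59 were present in the deposited FPKM table and passed the filter on low counts.

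The mitochondrial ribosome translates the few proteins encoded by mitochondrial DNA, all of which are subunits of the respiratory chain and ATP synthase. Its RNA comes from mitochondrial DNA, whereas its proteins are encoded in the nucleus, made in the cytosol and imported. Some of these proteins have counterparts in the bacterial ribosome and others do not. Most are incorporated in a single copy.

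DT40 is a chicken B cell line from a bursal lymphoma, and DT40-ASF is, as general background, a derivative in which the endogenous SRSF1 gene is disrupted and the human gene, also called ASF, is supplied. The genotype labels gave 1 control library and 2 libraries with an SRSF1-3 knock-in. The sample titles name the control as untransfected DT40-ASF cells and the knock-in libraries as clone 41 and clone 47, each from 1 clone. All were grown in the same serum-supplemented medium. SRSF1 is a splicing regulator and SRSF1-3 one of its isoforms. Transfection, cloning and the knock-in therefore differ from the control together and cannot be told apart.

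The 3 libraries held 44868987 (control), 42439517 (clone 41) and 41760372 (clone 47) counts. SRSF1, counted per gene without separating isoforms, had ratios to the control of 1.58 (clone 41) and 4.16 (clone 47). The processing notes name the chicken build galGal4. How far reads of the supplied human gene or of the knock-in enter this count was not given. The 12 B cell markers, such as PAX5, were each detected in every library, with at least 158 counts, and some markers of other cells were counted too. In control, clone 41 and clone 47 the T cell gene CD8A had 1011, 359 and 920 counts, the collagen gene COL1A2 893, 1181 and 673, and the myeloid gene MPO 164, 136 and 799. The T cell genes CD3D and CD28 had 268, 296 and 232 counts, and 225, 45 and 28 counts, in the same order. From the same lists CD4, CSF1R and COL3A1, markers of helper T cells, macrophages and fibroblasts, had 0 or 1 count in each library. The summed B cell markers held 0.105% of counts in the control library, 0.0879% in clone 41 and 0.0624% in clone 47. T cell markers held 0.00344%, 0.00167% and 0.00290% in the same order, and myeloid markers 0.00562%, 0.00650% and 0.00959%, mostly from SPI1, which B cells also express (2341, 2614 and 3165 counts). The fibroblast and epithelial markers held 0.00204%, 0.00283% and 0.00167%. The part of these shifts in the results below was not tested. In bulk RNA, fewer cells of a type and less RNA per cell cannot be told apart.

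Levels were compared between genes as FPKM, the deposited values scaled by transcript length. The mitochondrial ribosomal protein genes were mostly well expressed, with a median FPKM of 46.3 in the control library, 48.4 in clone 41 and 50.3 in clone 47. The median member stood at percentile 83.4 of the 10168 tested genes that had an FPKM in the control. That standing depends on the length scaling, as ranking by CPM (counts without length) moved 45 of 48 named members by more than the spread over libraries. For example, MRPL35 stood at percentile 54.1 by CPM against 90.6 by FPKM, and MRPL15 at 80.1 against 83.4. How many members moved down was not counted. The members nevertheless covered a 27.2-fold range in the control, a 23.2-fold range in clone 41 and an 18.1-fold range in clone 47, although their products mostly enter the particle in equal numbers.

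The highest member in the control was MRPL20, whose bacterial counterpart binds ribosomal RNA early in large subunit assembly, at an FPKM of 179.5 in the control library, 174 in clone 41 and 125 in clone 47. MRPS21 followed at 132, 109 and 90.1 in the same order. MRPL18, a protein of the central protuberance, was at 117, 105 and 138, which made it the highest member in clone 47. MRPL3, which lies near the catalytic centre, was at 115, 148 and 113. The order near the top was thus not the same in the 3 libraries.

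At the other end, MRPS27, a small subunit protein with no bacterial counterpart, had the lowest FPKM in the control, at 6.61, with 7.71 in clone 41 and 7.63 in clone 47. MRPS14 was at 7.89, 7.47 and 11.5, and MRPS33 at 9.96, 11.0 and 14.4. In the large subunit the lowest in the control were MRPL53 (14.6, 12.3 and 20.4), MRPL28 (14.996, 13.66 and 13.67) and MRPL46 (15.2, 15.9 and 33.9). Low FPKM did not always mean few reads: MRPS27 had 2432 counts in the control and MRPL53 had 3831, or 368 and 263 counts per FPKM unit, against 34.9 for MRPL20. Which gene models lie behind these FPKM values was not stated in the labels, so the order by FPKM also depends on the lengths that were used.

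The subunits had similar medians. MRPL genes had a median FPKM of 45.5 in the control library, 46.1 in clone 41 and 53.6 in clone 47, and MRPS genes one of 50.5, 50.3 and 44.96. All members together took 0.407% of counts in the control library, 0.417% in clone 41 and 0.437% in clone 47. MRPL genes held 0.225%, 0.235% and 0.256% of counts and MRPS genes 0.182%, 0.182% and 0.181%. After scaling, the summed level of MRPL genes was 1.10 times the control in both clones, and that of MRPS genes was 1.05 times in clone 41 and 0.956 times in clone 47.

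**Figure D1:**
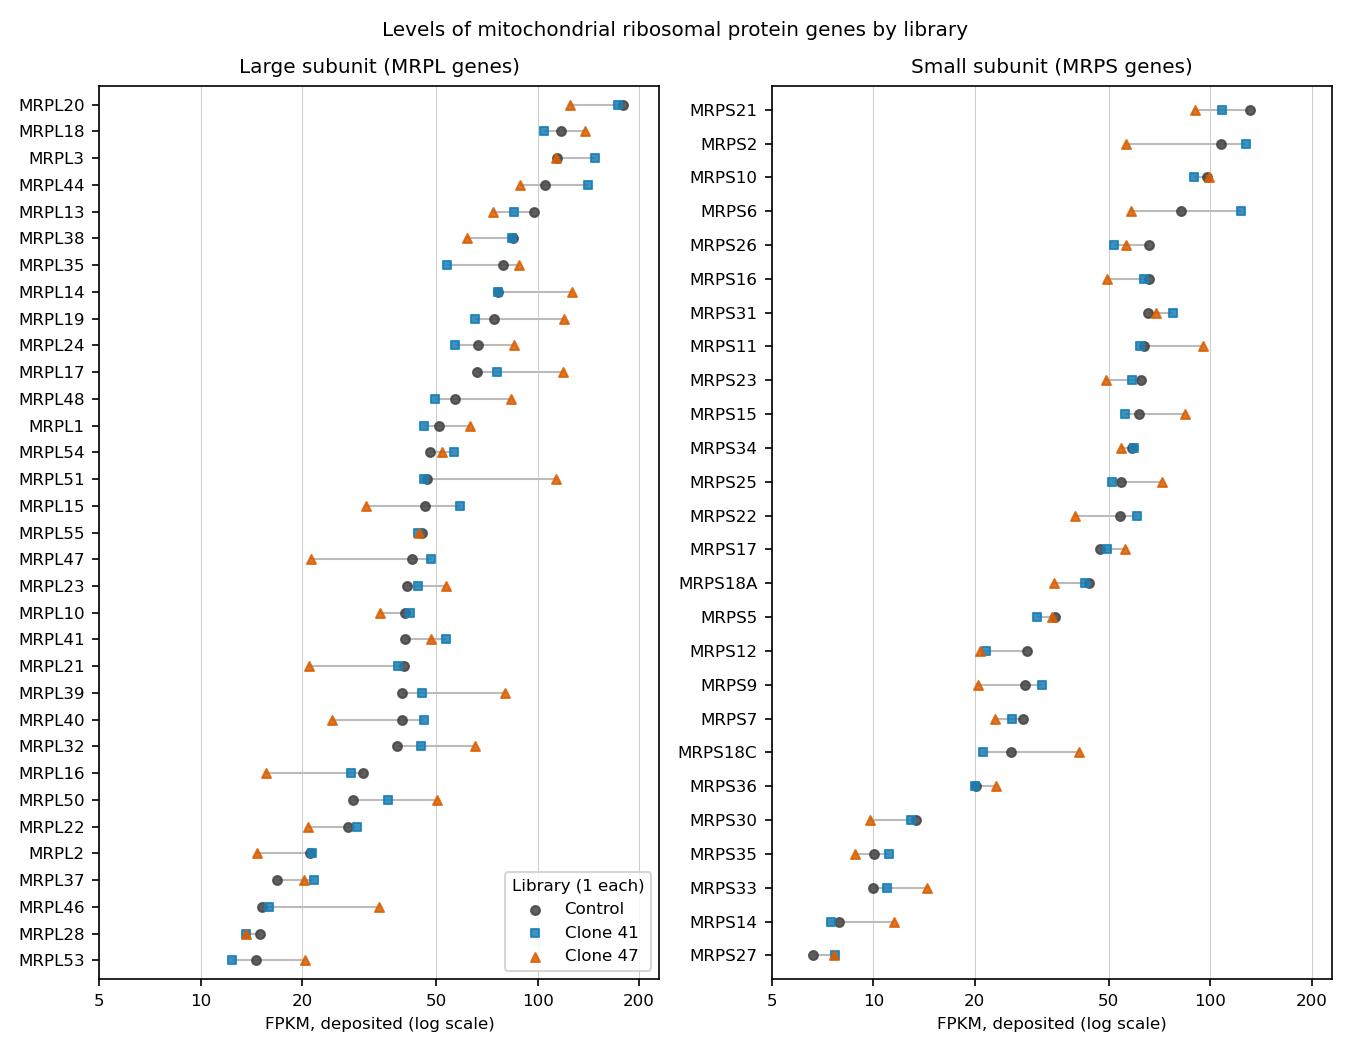
Deposited FPKM (log axis) of each of the 59 mitochondrial ribosomal protein genes in the control, clone 41 and clone 47 libraries, ordered by the control, with MRPL genes on the left and MRPS genes on the right; grey lines join the lowest and highest library. Clone 47 (triangles) stands apart from the other libraries for genes such as MRPL51 and MRPL47, while MRPL55 lies at 44.1 to 45.5 in all 3.

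Knock-in against control asked whether the 2 clones as a group differed from the control. No member was called by edgeR's quasi-likelihood test across all genes. The adjusted p was 1 for each of the 59, 0 had an unadjusted p below 0.05, and the lowest unadjusted p was 0.125, for MRPL51 (fitted log2 fold change 0.79, SE 0.50; clone 47 was above the control and clone 41 close to it). Across all 10203 tested genes 0 (0%) were called and 0.794% had an unadjusted p below 0.05. DESeq2, limma-voom, the legacy edgeR estimator and limma on log2(FPKM + 1) also called 0 members, with 0 members at an unadjusted p below 0.05 in each. Over all genes these called 2, 1, 2 and 12. The fit has 1 residual degree of freedom, from the spread between the 2 clones. Its p-values also rest on an estimate of variation shared across the tested genes, so they do not measure that spread alone. The SE is the absolute fitted log2 fold change divided by the square root of F. A p that misses the threshold does not show that a gene was unchanged. An exact permutation of the 3 library labels for a single value could not go below p = 0.333.

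The clones were therefore described separately against the control library, which they share. Levels below are CPM, counts scaled by TMM library sizes, and ratios carry 95% intervals of counting error only. A difference was counted by size where it was at least 1.5-fold, with no test.

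In clone 41 nearly all members lay close to the control. The lowest log2 ratio was -0.42, for MRPL35, and the highest 0.60, for MRPS6. At least 1.5-fold higher was 1 of 59 members, MRPS6, or 1.69%, beside 6.91% of all tested genes. At least 1.5-fold lower were 0 members, beside 11.0% of all tested genes. Among the tested genes in the members' range of mean CPM, 14.9 to 231.7, the shares were only 2.60% higher and 2.78% lower. The median log2 ratio was 0.06 for MRPL genes and 0.02 for MRPS genes, where that of all tested genes was -0.0015. Above the control by any amount were 23 of 33 MRPL genes and 14 of 26 MRPS genes, beside 49.8% of all tested genes. With total-count scaling, which moved the median of all tested genes to -0.08, 15 MRPL and 9 MRPS genes were above the control, so these counts of direction depend on the scaling.

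MRPS6, a protein of the small subunit platform, was at 59.9 CPM in the control library, 90.6 in clone 41 and 37.2 in clone 47. It was thus highest in clone 41, at 1.51 times the control (interval 1.44 to 1.59), and lowest in clone 47, at 0.621 times (interval 0.584 to 0.661). By FPKM its ratio in clone 47 was 0.710, which is not past 1.5-fold. In the GRCg7b gene table its span overlaps that of SLC5A3, a myo-inositol transporter gene that was at 1.85 and 3.99 times the control in the same order. No source used here gives the strand setting of the counting, so reads of such overlapping genes may not be separated. Of the 59 members, 15 overlap a neighbour in that table. Among them are MRPS21 (with PRPF3), MRPS14 (with CACYBP) and MRPL24 (with HDGF). In the control these neighbours had 9992, 4863 and 13240 counts, against 2552, 852 and 2301 for the members. SLC5A3 had 279 counts in the control library, 464 in clone 41 and 1078 in clone 47.

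Among MRPL genes the highest ratios in clone 41 were those of MRPL44, MRPL37 and MRPL3. MRPL44, a ribonuclease III-like protein near the exit of the peptide tunnel, was at 146 CPM in the control library, 203 in clone 41 and 127 in clone 47. Its ratio was 1.39 in clone 41 (interval 1.34 to 1.43) and 0.870 in clone 47 (interval 0.839 to 0.902). MRPL3 had 210 CPM in the control library, 280 in clone 41 and 205 in clone 47, so the control and clone 47 lay together and clone 41 above them. MRPL37, a large subunit protein without a bacterial counterpart, was at 38.2, 51.6 and 44.1 CPM, above the control in both clones.

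The lowest in clone 41 was MRPL35, a bacterial-type protein of the central protuberance, with 44.9 CPM in the control library, 33.6 in clone 41 and 54.8 in clone 47. Its ratio was 0.747 (interval 0.697 to 0.800) in clone 41, and it exceeded the control in clone 47, with 1.22. MRPS26, a small subunit protein without a bacterial counterpart, had 141 CPM in the control library, 115 in clone 41 and 119 in clone 47, or 0.815 and 0.844 times the control. MRPS12, a protein of the decoding centre, was also below the control in both, at 0.856 and 0.801 times.

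In clone 47 the members spread much further. Their log2 ratios ran from -1.05 for MRPL47 to 1.29 for MRPL51, and the interquartile range of the members spanned 0.82 log2 units, where it spanned 0.31 in clone 41. All tested genes spanned 0.83 in clone 47 and 0.46 in clone 41. The 5892 tested genes whose mean CPM lay in the members' range spanned 0.68 and 0.35. The wider spread in clone 47 was thus also seen over all genes.

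At least 1.5-fold higher in clone 47 were 9 of 59 members, or 15.3%, beside 18.6% of all tested genes. At least 1.5-fold lower were 5, or 8.47%, beside 17.2% of all tested genes. With a limit of 2-fold there were 3 higher, beside 9.42%, and 1 lower, beside 7.57%. Among the tested genes in the members' level range the shares were 11.7% and 13.3% at 1.5-fold, and 3.05% and 3.75% at 2-fold, higher and lower respectively. The members' shares of higher genes thus lay below those of all tested genes and above those of the level range, and their shares of lower genes lay below both.

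The 9 higher genes were 8 MRPL genes and MRPS18C, and the 5 lower were 3 MRPL genes and 2 MRPS genes. MRPL genes had a median log2 ratio of 0.16 and MRPS genes one of -0.11, beside 0.0026 for all tested genes. Above the control by any amount were 18 of 33 MRPL genes and 10 of 26 MRPS genes, beside 50.1% of all tested genes. The difference between the subunits in clone 47 was not tested, since the members of a subunit are not replicates.

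**Figure D2:**
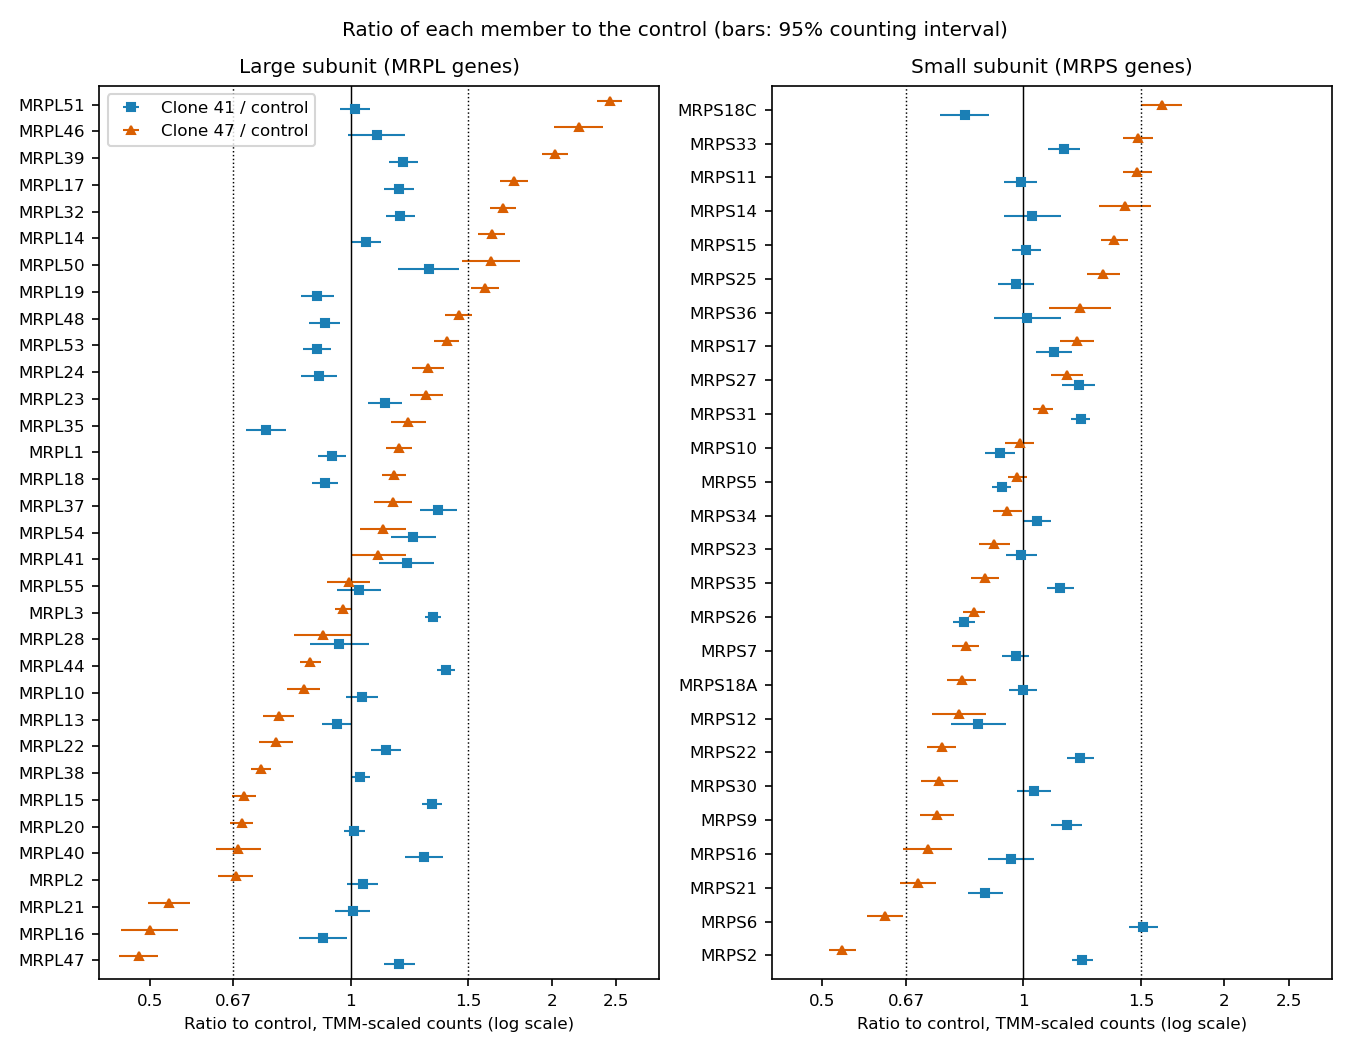
Ratio of each member to the control (log axis, TMM-scaled counts) in clone 41 (squares) and clone 47 (triangles), ordered by clone 47 within each subunit; bars are 95% counting intervals, the solid line marks equality and the dotted lines 1.5-fold. Clone 41 runs from 0.747 (MRPL35) to 1.51 (MRPS6) and clone 47 from 0.481 (MRPL47) to 2.44 (MRPL51).

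MRPL51, a large subunit protein with no bacterial counterpart, showed the highest ratio of any member. Its level was 68.3 CPM in the control library, 69.2 in clone 41 and 167 in clone 47. The control and clone 41 were alike and clone 47 alone was high, at 2.44 times the control (interval 2.34 to 2.55). In FPKM it went from rank 29 of the 59 members in the control to rank 6 in clone 47. Its neighbour in the GRCg7b gene table, the condensin gene NCAPD2, was at 1.14 and 1.15 times the control in clone 41 and clone 47.

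MRPL46, a protein of the central protuberance, had 18.2 CPM in the control library, 19.9 in clone 41 and 39.9 in clone 47. The interval of its ratio in clone 41 spanned equality (1.09, interval 0.990 to 1.21), while clone 47 lay at 2.19 (interval 2.02 to 2.39). MRPS11, a small subunit platform protein, is its neighbour in the GRCg7b gene table, the one case of adjacent members. MRPS11 had 57.0, 56.5 and 84.4 CPM, or 0.991 times the control in clone 41 and 1.48 times in clone 47, just under the 1.5-fold limit. Both members were thus near the control in clone 41 and above it in clone 47. NTRK3, on the other side of MRPL46, was lower in both, at 0.879 and 0.264 times. The span of MRPS11 also overlaps that of DET1, which was at 1.10 and 0.852 times.

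MRPL39, which lies near the peptide exit and resembles part of a threonyl-tRNA synthetase, was at 63.8 CPM in the control library, 76.5 in clone 41 and 129 in clone 47. Its ratios of 1.20 (interval 1.14 to 1.26) and 2.02 (interval 1.94 to 2.12) put it above the control in both clones. MRPL17 and MRPL32 have bacterial counterparts, and MRPL32 is matured by the mitochondrial m-AAA protease. MRPL17 had 62.7, 73.9 and 110.1 CPM and MRPL32 had 66.4, 78.8 and 112 CPM in the control, clone 41 and clone 47. Their ratios in clone 47 were 1.76 and 1.69, again with clone 41 between the control and clone 47.

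MRPL14, which in bacteria contacts the small subunit, had 64.8 CPM in the control library, 68.2 in clone 41 and 105 in clone 47, at 1.63 times the control in the last. MRPL50 had 14.7, 19.2 and 23.9 CPM, with ratios of 1.31 in clone 41 (interval 1.18 to 1.45) and 1.62 in clone 47 (interval 1.47 to 1.79). MRPL19 went the other way in clone 41, with 59.7 CPM in the control library, 53.2 in clone 41 and 94.8 in clone 47, or 0.891 and 1.59 times. Of these 9 genes MRPL19 and MRPS18C were below the control in clone 41. The 7 others were above it, MRPL51 and MRPL14 so narrowly that total-count scaling put them below.

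On the lower side, MRPL47, the mitochondrial member of a family that lines the peptide exit in bacteria, had the lowest ratio. It was at 59.7 CPM in the control library, 70.6 in clone 41 and 28.8 in clone 47. The clones thus lay on opposite sides of the control, at 1.18 times (interval 1.12 to 1.25) and 0.481 times (interval 0.450 to 0.515). Both of its neighbours in the GRCg7b gene table were above the control in clone 47: NDUFB5, a complex I subunit gene, at 1.32 times, and ACTL6A, a chromatin remodelling subunit gene, at 1.57 times.

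MRPL16, whose bacterial counterpart lies at the tRNA binding sites, had 27.6 CPM in the control library, 25.02 in clone 41 and 13.8 in clone 47. Both clones were below the control, with ratios of 0.908 (interval 0.835 to 0.988) and 0.5002 (interval 0.453 to 0.552). MRPL21 was at 48.8, 49.1 and 26.1 CPM, so that clone 47 alone was low, at 0.535 times. MRPS2, a small subunit protein of bacterial type, had 118 CPM in the control library, 145 in clone 41 and 63.1 in clone 47, or 1.23 and 0.536 times. Just outside the limit by counts were MRPL2 and MRPL40, at 0.673 and 0.678 times the control in clone 47. By FPKM MRPL40 was past it, at 0.618 times.

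**Figure D3:**
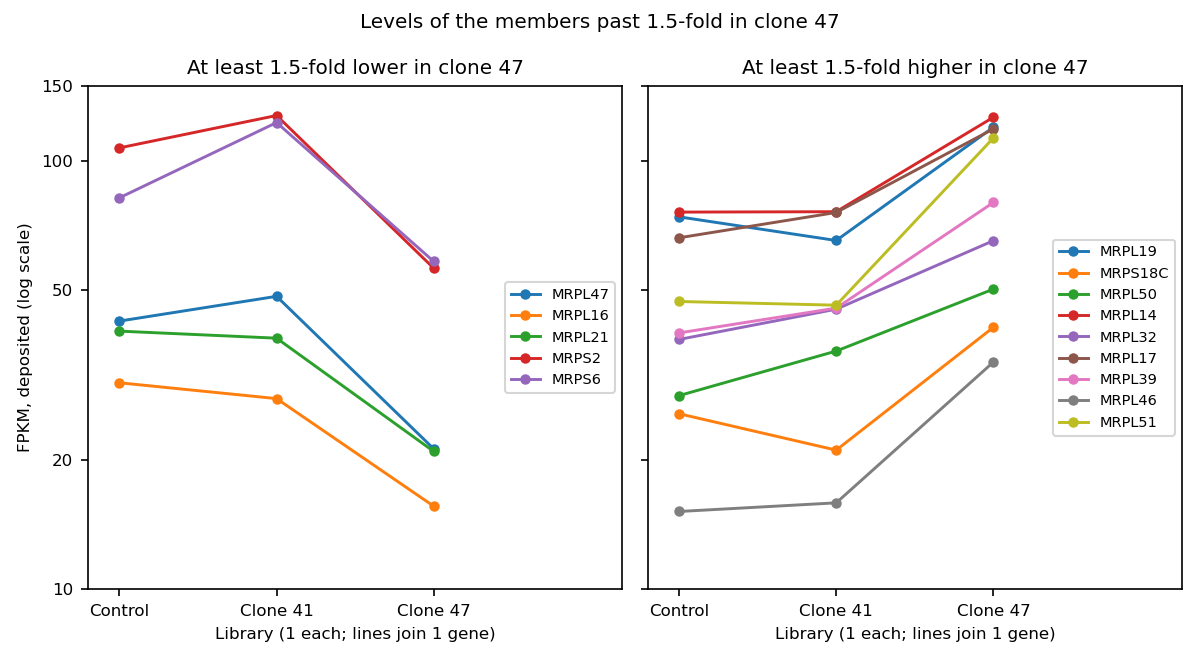
Deposited FPKM (log axis) in the control, clone 41 and clone 47 of the 14 members past the 1.5-fold limit by counts in clone 47, with the 5 lower genes on the left and the 9 higher on the right; each line joins the 3 libraries of 1 gene. FPKM shows the same side for clone 47 as the counts in each of the 14, for example MRPL51 at 47.0, 46.1 and 113, and MRPL16 at 30.4, 27.9 and 15.6.

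Because single members lay on both sides of the control, the proportions between members differed in clone 47. MRPL51 and MRPL47 had nearly equal FPKM in the control, at a quotient of 1.11, and in clone 41, at 0.954, whereas MRPL51 was 5.33 times MRPL47 in clone 47. This pair was chosen after its values were seen, as the members with the highest and the lowest ratio. Among the members of the MRPS18 family, MRPS18C had 0.590 times the FPKM of MRPS18A in the control, 0.497 times in clone 41 and 1.19 times in clone 47. MRPS18C was at 29.3 CPM in the control library, 24.0 in clone 41 and 47.3 in clone 47, or 0.817 times (interval 0.751 to 0.888) and 1.61 times. MRPS18A was at 1.00 and 0.808 times. The span of MRPS18C overlaps that of the helicase gene HELQ, which was at 0.715 and 1.36 times.

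Grouped by place in the particle, the 8 genes of the exit tunnel rim included both the lowest member and the third highest in clone 47. MRPL17, MRPL32 and MRPL39 were at least 1.5-fold higher there and MRPL47 at least 1.5-fold lower. That is 37.5% and 12.5% of the 8, beside 18.6% and 17.2% of all tested genes and 11.7% and 13.3% of those in the members' level range. The other 4 lay between 0.772 times for MRPL22 and 1.30 times for MRPL24, with MRPL23 at 1.30 times and MRPL44 at 0.870 times. In clone 41 the median log2 ratio of this group was 0.24, with 7 of 8 above the control, beside 49.8% of all tested genes. MRPL24 was below it, at 0.895 times.

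The central protuberance, where the large subunit contacts tRNA and the head of the small subunit, had 6 genes. In clone 47 MRPL46, MRPL48 (1.45 times), MRPL35 (1.22 times) and MRPL18 (1.16 times) were above the control, and MRPL38 (0.734 times) and MRPL40 below it. MRPL38 lay near the control in clone 41, at 1.03 times, and MRPL40 at 1.29 times. Of the stalk region MRPL10, which anchors the stalk, was at 1.04 and 0.850 times the control in clone 41 and clone 47, MRPL53 at 0.889 and 1.39 times, and MRPL54 at 1.24 and 1.12 times.

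The 6 small subunit genes of the decoding region and mRNA path were mostly below the control in clone 47. MRPS2, MRPS9 (0.743 times), MRPS12 (0.801 times), MRPS7 (0.819 times) and MRPS5 (0.979 times) were below it, and MRPS11 above it. MRPS5 was on the other side of the control with total-count scaling. The group had a median log2 ratio of -0.30 in clone 47 and -0.03 in clone 41, beside 0.0026 and -0.0015 for all tested genes. Of all tested genes 50.1% lay above the control in clone 47. MRPS30 and MRPS18A, which carry small subunit names but which structures of the mammalian ribosome place in the large subunit, had ratios of 0.748 and 0.808 in clone 47. Their ratios in clone 41 were 1.04 and 1.00, with a direction that depended on the scaling. MRPS36, which in human cells is a component of the 2-oxoglutarate dehydrogenase complex, was at 1.01 and 1.22 times.

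MRPL genes without a bacterial counterpart, 13 in number, had a median log2 ratio of 0.26 in clone 41 and 0.21 in clone 47. Of these, 4 were at least 1.5-fold higher in clone 47 and 0 lower. The 20 with a counterpart had medians of 0.04 and -0.09, with 4 higher and 3 lower in clone 47. In clone 47 these counts are 30.8% and 0% of the 13 genes and 20% and 15% of the 20, beside 18.6% and 17.2% of all tested genes. Among tested genes in the members' level range the shares were 11.7% and 13.3%. For small subunit genes the medians were 0.18 and -0.08 without a counterpart (9 genes) and -0.03 and -0.16 with one (14 genes). MRPS18A, MRPS30 and MRPS36 were left out of all these groups, also of the large subunit ones. Summed CPM of the 13 genes was 1.13 times the control in clone 41 and 1.25 times in clone 47, and that of the 20 genes 1.09 and 1.02 times. Summed CPM of all tested genes was 1.05 and 0.962 times. These groups are described only, since no replicate of either clone was measured.

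The knock-in clones were also compared with each other. At least 1.5-fold higher in clone 47 were 9 of 59 members, beside 22.2% of all tested genes, and at least 1.5-fold higher in clone 41 were 11, beside 18.8%. Of the 5892 tested genes in the members' level range, 813 were at least 1.5-fold higher in clone 47 and 948 in clone 41. The members' shares thus lay below those of all tested genes, narrowly so for clone 41, and above those of the level range. The highest quotients of clone 47 to clone 41 were 2.41 for MRPL51 (interval 2.31 to 2.52), 2.01 for MRPL46 and 1.97 for MRPS18C. The lowest were 0.407 for MRPL47 (interval 0.381 to 0.435), 0.411 for MRPS6 and 0.437 for MRPS2. MRPL15, a bacterial-type protein, had 126 CPM in the control library, 166 in clone 41 and 86.9 in clone 47, with a quotient of 0.522. MRPS22, a small subunit protein without a bacterial counterpart, had a quotient of 0.620, at 1.22 times the control in clone 41 and 0.754 times in clone 47. Each of these compares 1 library with 1, with no test.

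Genes that work with the mitochondrial ribosome were set beside its proteins. None was called by edgeR's quasi-likelihood test (adjusted p = 1 for each gene named here). Of 5 ribosomal proteins under other names, DAP3 was at 1.14 times the control in clone 41 and 0.934 times in clone 47, PTCD3, a pentatricopeptide repeat protein, at 0.765 and 1.27 times, AURKAIP1 at 1.09 and 0.568 times, and ICT1, a peptide release factor within the large subunit, at 1.00 and 1.15 times. The 5 had median log2 ratios of 0.0005 in clone 41 and -0.03 in clone 47.

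Of 19 genes of ribosome assembly and rRNA modification, 3 were at least 1.5-fold higher and 0 lower in clone 41, and 4 were higher and 2 lower in clone 47. These are 15.8% and 0% in clone 41 and 21.1% and 10.5% in clone 47, beside 6.91%, 11.0%, 18.6% and 17.2% of all tested genes. For tested genes in the members' level range the shares were 2.60%, 2.78%, 11.7% and 13.3% in the same order. METTL15, a methyltransferase of the small subunit rRNA, had ratios of 1.73 and 2.36 in clone 41 and clone 47. By counts it was the only assembly gene named here above the 1.5-fold limit in both. Its FPKM was 5.05 in the control library, 5.97 in clone 41 and 9.64 in clone 47. By FPKM the ratios were thus 1.18 and 1.91, past the limit in clone 47 only. NSUN4, another rRNA methyltransferase, was at 1.01 and 1.92 times. RBFA, a small subunit assembly factor, was at 1.14 and 0.488 times, and MRM1, which methylates the large subunit rRNA, at 1.56 and 0.517 times.

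Of 10 mitochondrial translation factors, MTIF3, an initiation factor, was at 0.896 and 2.14 times the control in clone 41 and clone 47. It was the only one past 1.5-fold in either clone. In clone 47 that is 10% higher and 0% lower, beside 18.6% and 17.2% of all tested genes. For tested genes in the members' level range these were 11.7% and 13.3%. MTFMT, which formylates the initiator tRNA, was at 1.17 and 0.669 times. Of 14 mitochondrial aminoacyl-tRNA synthetase genes, AARS2 was at 1.09 and 2.13 times, TARS2 at 1.22 and 1.68 times, and FARS2 at 1.11 and 0.607 times. The list had median log2 ratios of 0.14 and 0.13. Past 1.5-fold in clone 47 were 2 higher (14.3%) and 1 lower (7.14%), beside the same 18.6% and 17.2%, and 11.7% and 13.3% in the level range.

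Among 14 genes of mitochondrial DNA expression and its regulators, SSBP1, the single-stranded DNA binding protein of mitochondria, had 5584 counts in the control library, 6508 in clone 41 and 2162 in clone 47, or 1.30 times (interval 1.25 to 1.35) and 0.400 times (interval 0.381 to 0.421). It was the only gene of the list past 1.5-fold in clone 47. That is 0% higher and 7.14% lower, beside 18.6% and 17.2% of all tested genes, and 11.7% and 13.3% in the members' level range. In clone 41 PPARGC1A and PPARGC1B, coactivators known in mammals for mitochondrial biogenesis, were past 1.5-fold on opposite sides. That is 7.14% of the list higher and 7.14% lower, beside 6.91% and 11.0% of all tested genes. PPARGC1A had 153, 60 and 189 counts in control, clone 41 and clone 47, with ratios of 0.437 (interval 0.319 to 0.593) and 1.28. PPARGC1B had 544, 782 and 418 counts, with ratios of 1.60 and 0.794.

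The 13 protein genes of the mitochondrial genome, whose messages this ribosome translates, held 3.33% of counts in the control library, 4.06% in clone 41 and 4.42% in clone 47. Their median log2 ratios were 0.39 and 0.27. In each clone 12 of 13 lay above the control, beside 49.8% (clone 41) and 50.1% (clone 47) of all tested genes. ND2 was the exception, at 0.905 and 0.964 times. With total-count scaling the numbers above the control were 11 and 13. Nuclear genes of the respiratory chain (53 genes) had medians of 0.12 and 0.18, and cytosolic ribosomal protein genes (67 genes) 0.32 and -0.095. All 59 mitochondrial ribosomal protein genes had medians of 0.05 and -0.02. In clone 47 that median lay between genes on both sides of the control. Of the members 9 were at least 1.5-fold higher (15.3%) and 5 lower (8.47%), beside 18.6% and 17.2% of all tested genes. In the members' level range the shares were 11.7% and 13.3%. Of the 13 mitochondrial genome genes 0 were past 1.5-fold in clone 47. In clone 41 CYTB was, at 1.60 times, which is 7.69% of the 13 beside 6.91% of all tested genes.

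**Figure D4:**
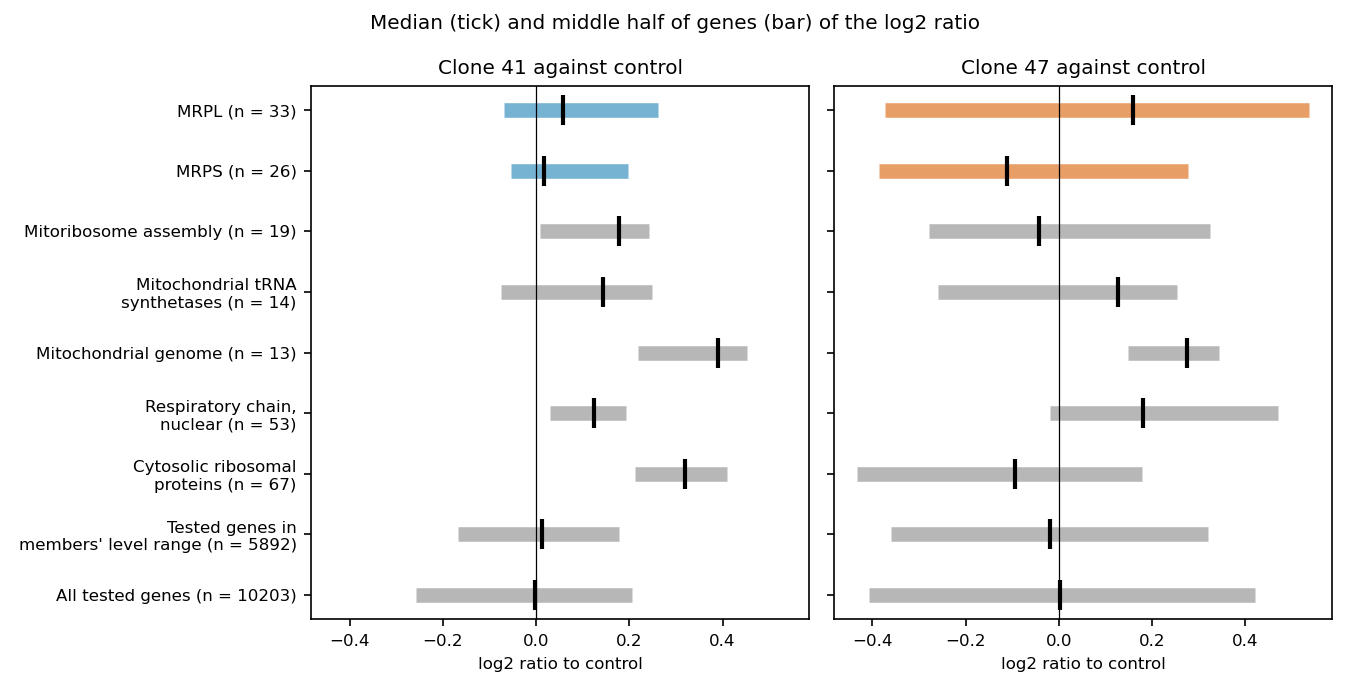
Log2 ratio to the control in clone 41 (left) and clone 47 (right) for MRPL and MRPS genes (coloured), companion lists and all tested genes (grey); black ticks are medians and bars span the interquartile range of a list. The bars of MRPL and MRPS genes are wider in clone 47 than in clone 41, as is that of all tested genes, and the mitochondrial genome lies above 0 in both.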

How the data were processed

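RNA of 3 libraries was sequenced as paired ends from mRNA-enriched, strand-specific libraries amplified by PCR, per the labels' protocols. The submitters' processing notes name TopHat2, TopHat, Bowtie, Cufflinks 2.2.1 and Cuffdiff with build galGal4. The read counts deposited by the authors are whole numbers per gene. The FPKM values deposited by the authors are scaled by transcript length and library size. For the counting tool, its annotation and its use of strand: not given in the sources used here.

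Genes with low counts were removed by filterByExpr of edgeR 4.0.16 (minimum count 10, minimum total 15), leaving 10203 genes, which were scaled by TMM. Knock-in was tested against control over all genes with edgeR's quasi-likelihood F test (newer estimator) and Benjamini-Hochberg adjustment at 0.05. With 1 residual degree of freedom, the single control library is taken to vary as the clones do. Log2 ratios used a prior count of 2. Intervals are exact conditional binomial 95% intervals, which cover counting error only. A count of 0 allowed up to 0.0742 CPM, taken as 3 counts. Alternatives were other scalings, no filter, DESeq2 1.42.0, limma 3.58.1 and FPKM. Neighbouring and overlapping genes were read from RefSeq's GRCg7b gene table, in which 59 members matched.

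Named members were those furthest from the control in either or both clones, those most different between clones, the highest and lowest by FPKM, those of short role lists, and up to 4 genes per companion list by size of ratio. PPARGC1A and genes neighbouring a member were named after their values were seen, as were MRPL2, MRPL55, ND2 and the markers. MRPL14 and MRPS36 were also named outside these rules. The members and lists were chosen with earlier results of these data known.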

Additional observations from a re-analysis of the deposited data

How the results depend on the processing

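No member was called under DESeq2 size factors, total-count scaling, no filter, the legacy edgeR estimator, DESeq2, limma-voom or limma on log2(FPKM + 1), which called 0, 0, 0, 2, 2, 1 and 12 of all genes. Leaving out a clone leaves no residual degrees of freedom, so that it gives no test. The count of 1 member at least 1.5-fold higher in clone 41 was 0 with total-count scaling, with FPKM at either pseudocount (1 or 0.1) and with a limit of 2-fold, as MRPS6 lies close to the limit. In clone 47 a limit of 2-fold gave 3 higher and 1 lower, by construction, and total-count scaling gave 12 higher. With log2(FPKM + 1) 5 were again lower in clone 47, but MRPL40 was among them and MRPS6 was not. The median log2 ratio of MRPL genes in clone 41 turned from 0.059 to -0.017 with total-count scaling, which moved the median of all genes to -0.08, so it stayed above that median. Leaving out the other clone gave a median of 0.056 for MRPL genes and 0.014 for MRPS genes in clone 41, and 0.16 and -0.11 in clone 47. Over scalings, 16 members changed side of the control in clone 41 and 4 in clone 47; between counts and log2(FPKM + 1), 9 and 1 did. The rank of a named member by CPM differed from that by FPKM for 45 of 48 members by more than the spread over libraries. No paired analysis was possible because there is a single control library. Depth was not the limit for single members, which had 568 to 11309 counts; the limit is 1 library per clone and 1 control.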
